A study of Mus musculus with 20 samples.

Results

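The endocytic receptors of the suckling enterocyte are described here through 7 genes, Lrp2, Cubn, Amn, Dab2, Folr1, Fcgrt and Clcn5, of the 55487 mouse genes in the deposited table. They were taken by gene symbol, each symbol matched 1 gene, and all 7 passed the filter on low counts. Bulk polyA RNA of small intestine was sequenced from mouse pups in 4 groups of 5 libraries. The groups were pups at 2 weeks of dams with periodontitis (periodontitis pups) and of control dams (control pups), and the same pair at 7 weeks. Lrp2 met the filter only through the 2-week periodontitis libraries, where it was highest, and its place in every comparison and count below rests on that. Periodontitis is a chronic inflammatory disease of the gums and the bone around the teeth, and the condition was that of the dams, not of the pups. The labels give no strain, sex, litter, intestinal segment or way in which periodontitis was induced, and nothing says that the 5 libraries of a group came from separate litters. The p-values therefore measure the spread between libraries only.

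In suckling mammals much of the protein in milk is taken up whole. Enterocytes of the suckling small intestine carry receptors on their apical membrane and gather them in clathrin-coated pits through an adaptor. They acidify the endosome and send cargo to a lysosome or across the cell. This programme is known to be lost around weaning in rodents, when enterocytes with brush border hydrolases for solid food replace the suckling ones. Cubilin (Cubn) binds vitamin B12 carried by intrinsic factor as well as many proteins, and needs amnionless (Amn) to reach and stay at the membrane. Megalin (Lrp2) is a giant lipoprotein-type receptor that shares ligands with cubilin, and Dab2 is the adaptor that couples such receptors to clathrin. Folr1 is a folate receptor held in the membrane by a lipid anchor. Fcgrt is the heavy chain of the neonatal Fc receptor, which pairs with B2m and carries maternal IgG across the gut of suckling rodents. Clcn5 is a chloride-proton exchanger of endosomes, and its loss impairs uptake by megalin and cubilin in the kidney.

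Coordinates are from GENCODE M21 on GRCm38. Lrp2 (ENSMUSG00000027070) lies at chr2:69424340-69586065 on the minus strand and Cubn (ENSMUSG00000026726) at chr2:13276338-13491813, also minus. Amn (ENSMUSG00000021278) is at chr12:111271095-111276426 on the plus strand and Dab2 (ENSMUSG00000022150) at chr15:6299788-6440712, plus. Folr1 (ENSMUSG00000001827) and Fcgrt (ENSMUSG00000003420) share chromosome 7, at chr7:101858331-101870788 and chr7:45092990-45103851, both minus. Clcn5 (ENSMUSG00000004317) is at chrX:7153810-7319358 on the minus strand. All 7 code for protein, and the union of their exons spans 16701 bp in Lrp2, 14935 in Cubn, 11452 in Clcn5, 7342 in Dab2, 2297 in Folr1, 2102 in Fcgrt and 1843 in Amn. An exon of Gm13270 overlaps one of Cubn, and one of Gm18888 overlaps one of Dab2, each on the other strand. Strandedness of the counting is not given in the sources used here, so reads in those overlaps are of uncertain origin.

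The stretch of 200 bases from 250 to 51 before the RefSeq start (GRCm38.p6) is shown for 3 of the genes that were lower at 7 weeks and for Amn, which did not pass the test of age. Such windows were at hand for 6 of the 7 genes, all but Folr1. Each is given 5′ to 3′ in the sense of the gene. Capitals mark a match, on either strand, to 1 of 4 motifs looked for. HNF1 was searched as GTTAAT, and CDX factors were searched as TTTATG. The core of the HNF4 motif was searched as CAAAGT, and the promoter box bound by Tbp as TATAAA. No 2 of these overlapped in the windows shown.

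Lrp2, chr2:69586080-69586279, minus strand: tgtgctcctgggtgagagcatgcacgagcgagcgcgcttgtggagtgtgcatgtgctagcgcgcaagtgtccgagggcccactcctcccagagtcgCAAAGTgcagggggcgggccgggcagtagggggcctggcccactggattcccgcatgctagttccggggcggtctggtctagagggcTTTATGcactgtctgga

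Dab2, chr15:6299539-6299738, plus strand, first of its starts: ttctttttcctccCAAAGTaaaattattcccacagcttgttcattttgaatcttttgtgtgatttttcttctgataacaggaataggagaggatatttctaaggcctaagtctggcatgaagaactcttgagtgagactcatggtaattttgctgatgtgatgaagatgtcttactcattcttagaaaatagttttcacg

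Fcgrt, chr7:45103873-45104072, minus strand: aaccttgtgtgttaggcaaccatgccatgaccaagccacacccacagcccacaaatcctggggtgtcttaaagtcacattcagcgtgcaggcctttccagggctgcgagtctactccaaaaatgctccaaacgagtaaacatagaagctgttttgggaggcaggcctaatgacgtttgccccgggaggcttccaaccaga

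Amn, chr12:111270846-111271045, plus strand: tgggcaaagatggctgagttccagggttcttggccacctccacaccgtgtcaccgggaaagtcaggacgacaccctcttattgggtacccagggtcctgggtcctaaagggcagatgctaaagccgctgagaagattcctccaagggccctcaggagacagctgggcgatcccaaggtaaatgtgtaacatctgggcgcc

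The HNF4 core stood in the windows of Lrp2 and Dab2, and the CDX motif in that of Lrp2. The windows of Fcgrt and Amn held none of the 4 motifs, which says only that those letters are not there. Among 32851 windows of the same length, 10.5% held the HNF4 core, 8.78% the CDX motif, 9.14% the Tbp box and 5.33% the HNF1 motif. Among windows not shown, that of Cubn held none of the motifs, and another start of Dab2 had the HNF1 motif. A window of Clcn5 held the HNF4 core and the Tbp box, and another of Clcn5 held none. Any relation of these motifs to the age values was not tested.

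Total counts were 14882204 to 42563229 per library. Levels are given on the counts-per-million scale (CPM) with TMM scaling, the trimmed-mean method of edgeR. Comparisons between genes use length-scaled CPM, that is counts per kb of exon brought to the same total in every library. Control library 5 of 2 weeks stood apart, with the lowest depth, 29.4% of its counts on the mitochondrial genome (3.99% to 9.15% elsewhere) and 20080 genes detected (20791 to 24122 elsewhere). Periodontitis library 5 of 7 weeks had the lowest summed level of 8 pan-enterocyte markers at that age, 11723 CPM, against 14713 to 22351 CPM in the other 7-week periodontitis libraries and 17062 to 20651 CPM in the 7-week control libraries. Vil1 and Epcam, markers of intestinal epithelium, had at least 511 and 1088 CPM in every library.

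Fcgrt was by far the most abundant of the 7 at 2 weeks. Its length-scaled level averaged 4247 ± 2318 in periodontitis pups and 1022 ± 681 in control pups (SD, n = 5 each), ranks of 22 and 102 from the top among 55227 genes with a length. Folr1 averaged 501 ± 194 in periodontitis pups and 168 ± 110 in control pups, and Amn averaged 463 ± 104 in periodontitis pups and 251 ± 140 in control pups. Dab2 averaged 102 ± 36 in periodontitis pups and 41.3 ± 17.3 in control pups. Cubn was even between them, at 46.8 ± 9.59 in periodontitis pups and 47.2 ± 11.7 in control pups, and Clcn5 averaged 24 ± 2.81 in periodontitis pups and 18 ± 7.9 in control pups. In periodontitis pups the libraries of neighbours in the order of means did not overlap except those of Folr1 and Amn. In control pups Fcgrt was the highest of the 7 in every library, and its range met that of Amn only through library 5, at 46.5. The other 4 control libraries had 576 to 1574 of Fcgrt and 245 to 355 of Amn. Folr1 and Cubn likewise overlapped only through library 5. Amn and Folr1, Cubn and Dab2, and Dab2 and Clcn5 overlapped with or without it, so the order within those pairs was within the spread between control libraries.

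Lrp2 was at trace level in every group, with ranks of 17567 to 25747. Its length-scaled level at 2 weeks was 0.309 ± 0.164 in periodontitis pups and 0.0548 ± 0.0272 in control pups, from 380 and 61 counts over 5 libraries. Of the receptors megalin and cubilin the data thus held mainly Cubn, with its partner Amn, and megalin itself was barely detected. At 7 weeks 8 counts were found over the 5 periodontitis libraries and 4 over the 5 control libraries. No library of any group had more Lrp2 per length than it had of another of the 7 genes.

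By 7 weeks the order had changed. Amn and Fcgrt led with overlapping libraries, at 179 ± 41.2 and 142 ± 20.2 length-scaled CPM in periodontitis pups and 138 ± 12.5 and 141 ± 21.1 in control pups. Cubn followed at 13.4 ± 11.3 in periodontitis pups and 13 ± 5.57 in control pups, overlapping with Clcn5 at 7.33 ± 1.19 and 7.72 ± 0.774. Folr1 had dropped to 1.13 ± 0.154 in periodontitis pups and 0.969 ± 0.407 in control pups. Dab2 stood at 0.532 ± 0.359 and 0.552 ± 0.205, and its libraries overlapped those of Folr1 in both groups.

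**Figure D1:**
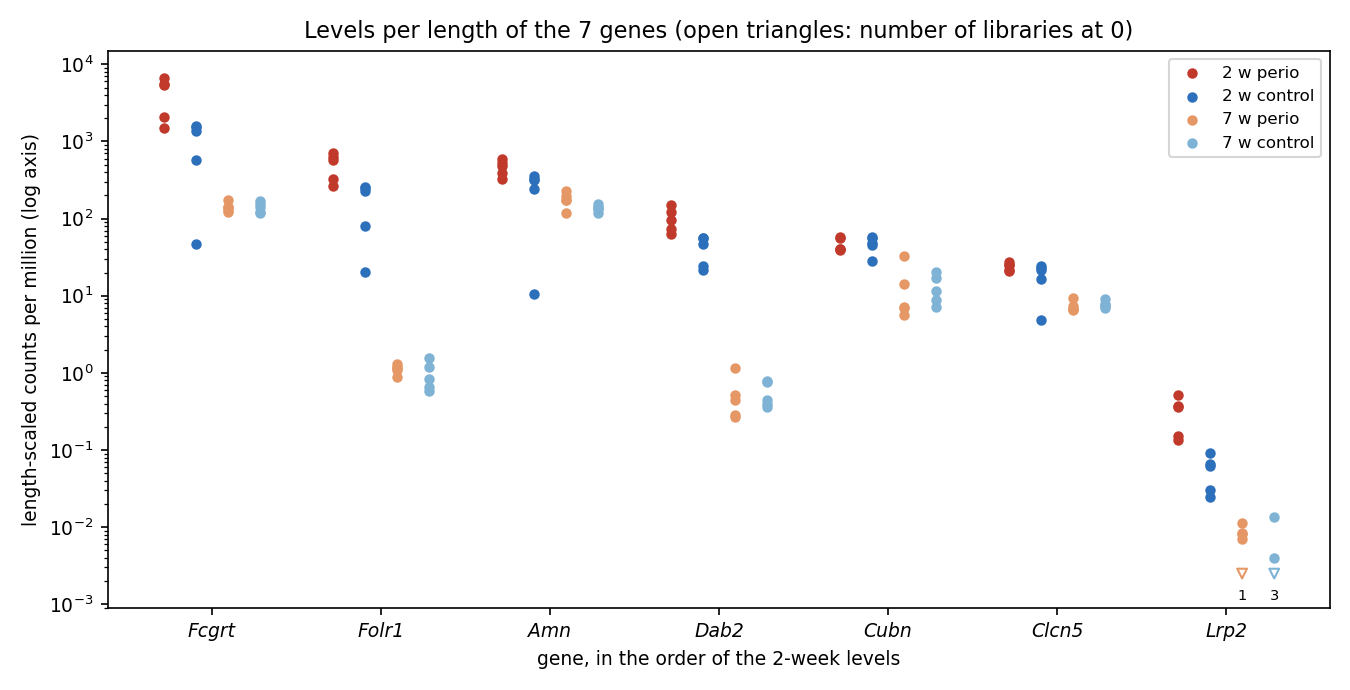
Length-scaled CPM on a log axis for each of the 7 genes, 1 point per library, with periodontitis pups left of control pups at each age (n = 5 libraries a group); an open triangle with a number marks libraries at 0. Fcgrt lies at 1512 or above in all 2-week periodontitis libraries, Folr1 and Dab2 lie between 0.272 and 1.56 at 7 weeks, and Lrp2 lies at or below 0.523 in all 20 libraries.

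The first question was whether the genes differed between pups of dams with periodontitis and control pups at 2 weeks. Fcgrt, Folr1, Dab2 and Lrp2 had higher means in periodontitis pups, with log2 fold changes of 1.02 to 2.24, and Amn and Clcn5 had smaller positive values. Cubn had a value of -0.26. After adjustment over all 17464 genes tested, 0 of the 7 passed (edgeR quasi-likelihood test, Benjamini-Hochberg, threshold 0.05), beside 0.0286% of all genes. Unadjusted p-values were under 0.05 for 5 of the 7 and for 2511 of all genes. DESeq2 passed 4 of the 7, Lrp2, Dab2, Folr1 and Fcgrt, beside 3.43% of all genes, and limma-voom with sample quality weights passed these and Amn, beside 29.8% of all genes. Lrp2 is in these counts only because it met the low-count filter through the 2-week periodontitis libraries, the higher group here.

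Fcgrt had 1439, 951, 3288, 3111 and 4049 CPM in periodontitis libraries 1 to 5, against 1001, 819, 981, 364 and 76 CPM in control libraries 1 to 5. The groups overlapped, since periodontitis library 2 lay below 2 control libraries, while periodontitis libraries 3 to 5 all exceeded the highest control library. In log2 terms the fold change was 1.99 ± 0.47 (SE; edgeR adjusted p = 0.0645). Without control library 5, which had the lowest value, it was 1.70 with an adjusted p of 0.0395 in edgeR, where 0.276% of all genes passed. It also passed without periodontitis library 2, at 2.19 (edgeR adjusted p = 0.0184), where 2.18% of all genes did. Without periodontitis library 3, 4 or 5 the edgeR adjusted p rose to 0.204, 0.207 or 0.237.

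Folr1 had 254, 182, 425, 431 and 375 CPM in periodontitis libraries, against 181, 149, 174, 55.6 and 36.5 CPM in control libraries. Every periodontitis library lay above every control library, but the lowest periodontitis library and the highest control library, at 182 and 181 CPM, nearly met. The log2 fold change was 1.48 ± 0.36 (edgeR adjusted p = 0.0688). Leaving out periodontitis library 2 brought the edgeR adjusted p to 0.0222, and leaving out periodontitis library 3, 4 or 5 brought it to 0.229, 0.229 or 0.232.

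Dab2, the adaptor, had 181, 140, 207, 295 and 260 CPM in periodontitis libraries, against 126, 100, 124, 47.6 and 137 CPM in control libraries. The groups did not overlap, and control library 4, not 5, was the lowest. Its log2 fold change was 1.02 ± 0.30 (edgeR adjusted p = 0.118), and it stayed short of the threshold whichever single library was left out.

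Lrp2 had 45, 32, 87, 136 and 80 counts in periodontitis libraries, or 0.682 to 2.32 CPM, against 17, 13, 20, 7 and 4 counts in control libraries, or 0.154 to 0.455 CPM. All periodontitis libraries lay above all control libraries at this low level. With these counts the log2 fold change was 2.24 ± 0.48 (edgeR adjusted p = 0.0545). It passed without periodontitis library 1 (edgeR adjusted p = 0.0424, where 0.541% of all genes passed) or 2 (0.0164). Without periodontitis library 3, 4 or 5 the edgeR adjusted p was 0.183, 0.201 or 0.194. Non-overlap with higher values in periodontitis pups was thus seen for 3 of the 7 genes, beside 3.71% of all genes. Lrp2 is in that count only because it met the low-count filter through these periodontitis libraries.

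Cubn and Amn, the pair that forms the B12 receptor, had fold changes of opposite sign, and neither passed the test. Cubn had 280, 261, 173, 156 and 171 CPM in periodontitis libraries, against 217, 195, 257, 252 and 330 CPM in control libraries. The 3 periodontitis libraries with the most Fcgrt, libraries 3 to 5, had the least Cubn of all 10 libraries on this TMM scale. On length-scaled CPM they had 39.9, 39.5 and 40, and control library 5 was lower, at 28.4. The log2 fold change of Cubn was -0.26 ± 0.43 (edgeR adjusted p = 0.8).

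Amn had 244, 182, 280, 290 and 251 CPM in periodontitis libraries, against 178, 172, 196, 136 and 15.1 CPM in control libraries. The groups overlapped by 1 library on each side, and control library 5 was far below the rest. Its log2 fold change was 0.84 ± 0.40 (edgeR adjusted p = 0.344), and 0.55 without that library (edgeR adjusted p = 0.263).

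Per length, Amn exceeded Cubn by 7.06, 5.64, 13.1, 15 and 11.9 times in periodontitis libraries 1 to 5, against 6.62, 7.13, 6.16, 4.36 and 0.37 times in control libraries 1 to 5. Only control library 5 held less Amn than Cubn. The ratio in periodontitis libraries 3 to 5 was higher than in any other library of that age, and these are the libraries with the most Fcgrt.

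Clcn5 had 82.6, 71.2, 84.1, 83.9 and 81.5 CPM in periodontitis libraries, against 75.6, 74.8, 82.4, 56.6 and 42.9 CPM in control libraries. In periodontitis pups it was the steadiest of the 7, with a coefficient of variation of 6.69%, against 24.5% in control pups, where Cubn was steadier at 20.5%. The log2 fold change was 0.28 ± 0.17 (edgeR adjusted p = 0.471).

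Over the 7 genes the median log2 fold change at 2 weeks was 1.02, and over all genes tested it was 0.02. Control library 5 of 2 weeks and periodontitis library 5 of 7 weeks were also left out together, a choice made after seeing the data. Then 4 of the 7 genes passed in edgeR, Lrp2 (adjusted p = 0.0314), Dab2 (0.0433), Folr1 (0.0439) and Fcgrt (0.0278), beside 2.04% of all genes. The place of Lrp2 among these again rests on the filter met through the periodontitis libraries.

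**Figure D2:**
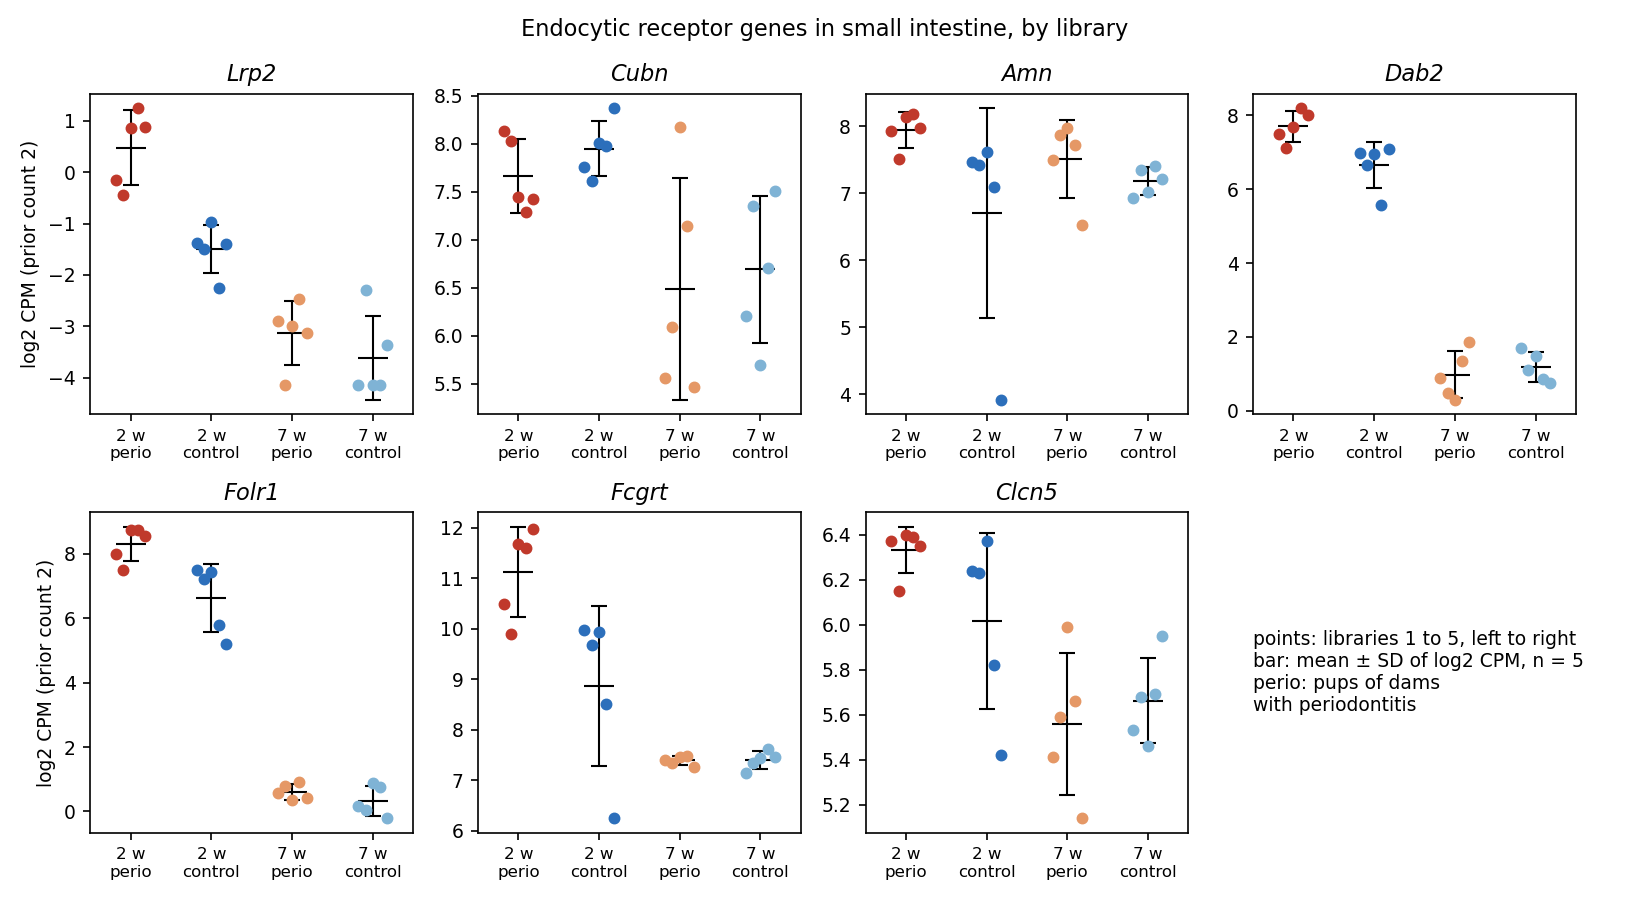
Log2 CPM (prior count of 2) of each gene in the 20 libraries, with periodontitis pups left of control pups at each age; points are libraries 1 to 5 from left to right and bars the mean ± SD of log2 CPM (n = 5). Folr1, Dab2 and Lrp2 do not overlap between the 2-week groups, Fcgrt, Amn and Folr1 are low in control library 5 of 2 weeks, and Folr1 and Dab2 fall to low levels at 7 weeks in both kinds of pup.

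Markers of segment and of enterocyte maturity also varied between the 2-week libraries. The lists of markers were summed over their genes in each library. Fabp6, the ileal bile acid-binding protein, had 365, 328, 17.5, 2.92 and 8.07 CPM in periodontitis libraries 1 to 5, against 197 to 510 CPM in control libraries. Slc10a2, the ileal bile acid transporter, had 1.36 to 2.44 CPM in periodontitis libraries 3 to 5 and 19.6 and 19.3 CPM in libraries 1 and 2, against 14.1 to 167 CPM in control libraries. The sum of 5 ileal markers was 309 to 962 CPM in periodontitis pups, against 649 to 1049 CPM in control pups, and 0 of the 5 passed the test, 2 with positive and 3 with negative log2 fold changes. The periodontitis libraries with the most Fcgrt and Lrp2, libraries 3 to 5, were those with the least Fabp6 and Slc10a2. Fgf15, an ileal hormone, had a positive fold change that did not pass, with 107, 126, 75, 55.2 and 57.5 CPM in periodontitis libraries 1 to 5, against 58.3, 65, 48.4, 53 and 39.5 CPM in control libraries (log2 fold change 0.67 ± 0.24, edgeR adjusted p = 0.236). The sum of 8 markers of duodenum and jejunum was 29646 to 44922 CPM in periodontitis pups, against 20687 to 33892 CPM in control pups. Of their log2 fold changes 1 was positive and 7 were negative, with a median of -0.14, and 0 passed the test. Cybrd1, 1 of the 8, had 492, 500, 70.5, 58.1 and 103 CPM in periodontitis libraries 1 to 5, against 547 to 860 CPM in control libraries.

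Sucrase-isomaltase (Sis), the brush border enzyme that appears at weaning, had 277, 462, 28, 9 and 19.2 CPM in periodontitis libraries, against 582, 604, 544, 761 and 1500 CPM in control libraries. The sum of 8 markers of the weaned enterocyte was 1316 to 3416 CPM in periodontitis pups, against 3676 to 6695 CPM in control pups. All 8 had negative log2 fold changes, with a median of -0.86, and 0 passed the test. The sum of 8 pan-enterocyte markers was 5500 to 8792 CPM in periodontitis pups, against 7146 to 10119 CPM in control pups. In bulk RNA, fewer cells of a kind and less RNA per cell cannot be told apart.

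With the mean log2 CPM of the ileal markers as a covariate, the 2-week log2 fold changes were 1.46 for Lrp2, 1.14 for Fcgrt, 0.92 for Folr1, 0.66 for Amn, 0.55 for Dab2 and 0.24 for Clcn5, and that of Cubn turned to 0.18. None of the 7 passed in that edgeR fit (adjusted p = 1 for each), and 0 of all genes did. The part of segment and of maturity in the 2-week values was not tested beyond this.

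**Figure D3:**
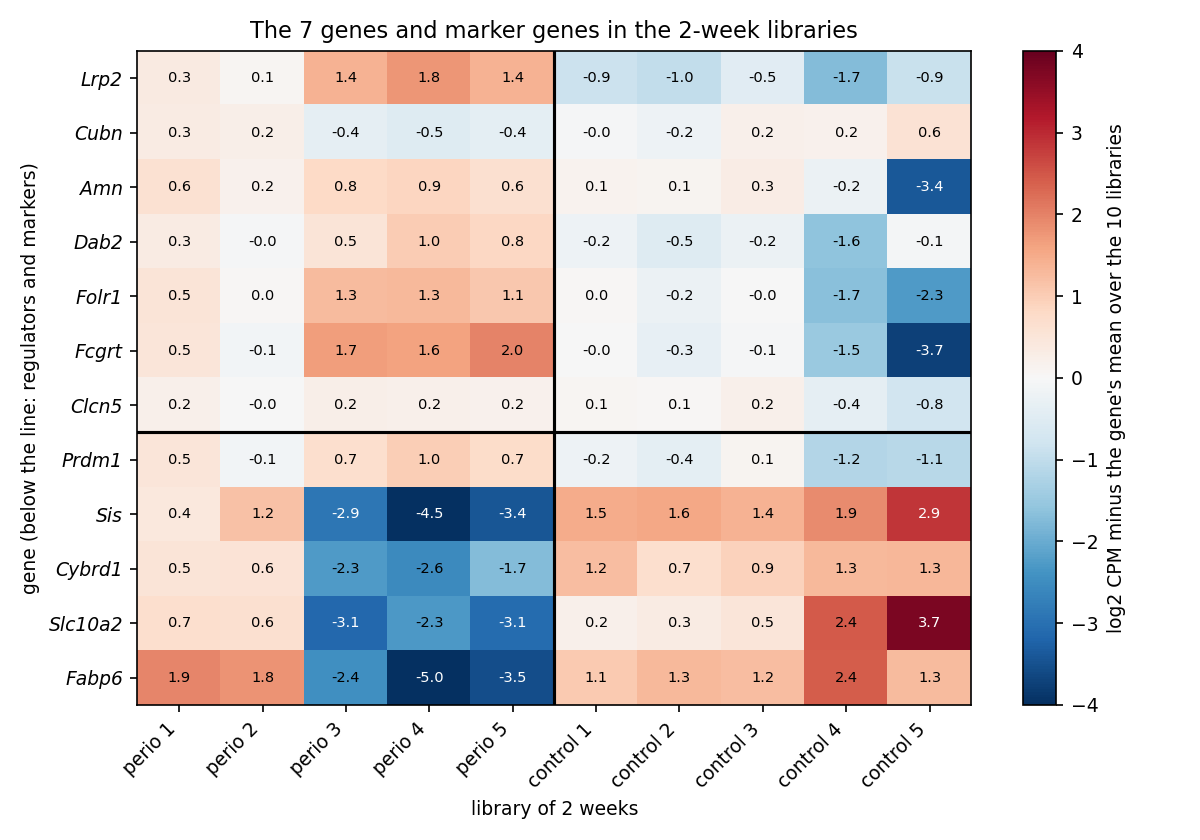
Log2 CPM of the 7 genes, of the regulator Prdm1 and of 4 markers in the 10 libraries of 2 weeks, each minus the gene's mean over those libraries, with periodontitis libraries left of the black line and control libraries right of it. Periodontitis libraries 3 to 5 are high in Fcgrt, Folr1 and Lrp2 and low in Cubn, Sis, Cybrd1, Slc10a2 and Fabp6, and control library 5 is low in Fcgrt and Amn. Cybrd1 is 1 of 8 markers of duodenum and jejunum, whose sum (not drawn) was 33978 to 44922 CPM in periodontitis libraries 3 to 5, against 20687 to 33892 CPM in control libraries.

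Other tissues that express megalin or these receptors were looked at through their markers. Of 9 markers of kidney proximal tubule, Miox and Kap had 0 counts in all libraries, and 1, Slc5a12, which intestine also expresses, had enough counts to be tested. Visceral endoderm and yolk sac, where these receptors are also used, were represented by 7 genes with a summed level of 50.4 to 135 CPM in 2-week periodontitis pups, against 36.1 to 47.2 CPM in control pups. The sum of 10 macrophage markers was 241 to 290 CPM in 2-week periodontitis pups, against 128 to 232 CPM in control pups. The sum of 8 endothelial markers was 252 to 271 CPM in periodontitis pups, against 195 to 246 CPM in control pups. Macrophages and endothelium can express Fcgrt and Dab2. Of the genes tested in these lists 0 passed at 2 weeks in edgeR, and the part of such cells in the values of the 7 genes was not tested.

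At 7 weeks the question was whether any difference between the kinds of dam was present after weaning. Of the 7 genes 0 passed the edgeR test (adjusted p = 1 for each), beside 0.0115% of all genes. This does not show that the levels were equal, given the standard errors below. Unadjusted p-values were under 0.05 for 0 of the 7 and for 582 of all genes in edgeR. DESeq2 and limma-voom also passed 0 of the 7, beside 0.143% and 0.0458% of all genes. The median log2 fold change was 0.04 over the 7 genes and 0.02 over all genes.

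Fcgrt had 169, 161, 178, 179 and 155 CPM in periodontitis libraries, against 141, 162, 175, 196 and 176 CPM in control libraries. Its spread was small at this age, with a coefficient of variation of 6.14% in periodontitis pups and 11.7% in control pups, against 51.1% and 63.3% at 2 weeks. The log2 fold change was -0.02 ± 0.45. The standard error is wide beside this spread because the fit shares 1 dispersion per gene over both ages.

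Cubn varied most among the genes above trace level, with 47, 68.1, 288, 141 and 44.2 CPM in periodontitis libraries, against 73.4, 163, 51.9, 104 and 182 CPM in control libraries. Periodontitis library 3 was the highest of the 10, and the groups overlapped widely. The log2 fold change was 0.04 ± 0.43.

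Amn had 181, 232, 250, 210 and 91.8 CPM in periodontitis libraries, against 122, 162, 128, 170 and 148 CPM in control libraries. Of the periodontitis libraries 4 lay above all control libraries, and library 5, low in pan-enterocyte markers, lay below them all. The log2 fold change was 0.40 ± 0.40, and 0.58 with an edgeR adjusted p of 0.0836 without that library and control library 5 of 2 weeks. Amn exceeded Cubn per length by 7.03 to 31.2 times in periodontitis libraries, against 6.6 to 20.1 times in control libraries.

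Folr1 and Dab2 were at low levels. Folr1 had 1.21 to 1.81 CPM in periodontitis pups, against 0.805 to 1.77 CPM in control pups, with a log2 fold change of 0.21 ± 0.41. Dab2 had 1.18 to 3.56 CPM in periodontitis pups, against 1.61 to 3.22 CPM in control pups, with a log2 fold change of -0.14 ± 0.33. Clcn5 had 35.2 to 63.5 CPM in periodontitis pups, against 44 to 61.6 CPM in control pups, with a log2 fold change of -0.09 ± 0.17. Lrp2 had 2, 0, 2, 2 and 2 counts in periodontitis libraries, against 0, 3, 0, 0 and 1 counts in control libraries. No library exceeded a floor of 3 counts, so no fold is given.

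Age gave the largest differences. In periodontitis pups Dab2, Folr1, Lrp2, Fcgrt and Clcn5 fell, that is 5 of the 7, beside 35.7% of all genes that fell and 66.1% that passed in either direction (edgeR). In control pups Dab2, Folr1, Lrp2, Fcgrt and Cubn fell, again 5 of 7, beside 34.4% of all genes that fell and 61.5% in either direction. Lrp2 is in both counts only because it met the filter through the 2-week periodontitis libraries, which are also the higher group in the comparison of periodontitis pups. The median log2 fold change of the 7 genes was -3.93 in periodontitis pups, where that of all genes was -0.11, and -1.93 in control pups, where that of all genes was -0.13. The 2 ages differ in weaning, in diet and in whatever segment was taken, and these cannot be told apart here. Fgf15 had 0 counts in all 10 libraries of 7 weeks, against 39.5 to 126 CPM at 2 weeks, and Fabp6 had at most 0.724 CPM at 7 weeks. Of the 5 ileal markers, 3 fell and 1, Slc51b, rose in periodontitis pups, and 3 fell and 0 rose in control pups. Their sum was 258 to 421 CPM at 7 weeks against 309 to 962 CPM at 2 weeks in periodontitis pups. In control pups it was 266 to 373 CPM against 649 to 1049 CPM. Of the 8 markers of duodenum and jejunum, 6 rose and 2 fell in each kind of pup.

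Folr1 averaged 1.48 ± 0.259 CPM at 7 weeks against 333 ± 111 CPM at 2 weeks in periodontitis pups, a log2 fold change of -7.83 ± 0.48 (edgeR adjusted p = 6.68e-10). In control pups it averaged 1.25 ± 0.426 CPM at 7 weeks against 119 ± 68.1 CPM at 2 weeks, a log2 fold change of -6.56 ± 0.46 (edgeR adjusted p = 4.44e-09). The mean at 7 weeks was 0.444% of that at 2 weeks in periodontitis pups and 1.05% in control pups. The highest library of 7 weeks, at 1.81 CPM, was far below the lowest of 2 weeks, at 36.5 CPM.

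Dab2 averaged 2.07 ± 0.975 CPM at 7 weeks against 216 ± 61.7 CPM at 2 weeks in periodontitis pups (log2 fold change -6.69 ± 0.38, edgeR adjusted p = 4.4e-10). Control pups had 2.28 ± 0.677 CPM at 7 weeks against 107 ± 35.9 CPM at 2 weeks (log2 fold change -5.54 ± 0.36, edgeR adjusted p = 2.55e-09). The adaptor thus kept 0.958% of its 2-week mean in periodontitis pups and 2.13% in control pups.

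Fcgrt averaged 168 ± 10.3 CPM at 7 weeks against 2568 ± 1313 CPM at 2 weeks in periodontitis pups (log2 fold change -3.93 ± 0.51, edgeR adjusted p = 2.29e-06). Control pups averaged 170 ± 20 CPM at 7 weeks against 648 ± 410 CPM at 2 weeks (log2 fold change -1.93 ± 0.47, edgeR adjusted p = 0.00149). In control pups the ages overlapped, because control library 5 of 2 weeks, at 76 CPM, lay below all libraries of 7 weeks. Without it the log2 fold change was -2.22 (edgeR adjusted p = 1.36e-05). Fcgrt kept 6.56% of its 2-week mean in periodontitis pups and 26.2% in control pups, and its mean length-scaled level at 7 weeks still ranked 867 and 850 from the top.

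Lrp2 had 8 counts over 5 libraries at 7 weeks against 380 at 2 weeks in periodontitis pups, and 4 against 61 in control pups. The fitted log2 fold changes were -4.45 ± 0.61 in periodontitis pups (edgeR adjusted p = 4.21e-06) and -3.17 ± 0.72 in control pups (edgeR adjusted p = 0.000919). With so few counts at 7 weeks their size is loosely set.

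Cubn, the B12 receptor itself, averaged 118 ± 103 CPM at 7 weeks against 208 ± 57.5 CPM at 2 weeks in periodontitis pups (log2 fold change -0.82 ± 0.43, edgeR adjusted p = 0.0984). On this TMM scale library 3 of 7 weeks overlapped the 2-week libraries, and without it the log2 fold change was -1.47 (edgeR adjusted p = 0.00234). On length-scaled CPM the ages did not overlap in periodontitis pups, with 5.62 to 32.7 at 7 weeks against 39.5 to 58.4 at 2 weeks. In control pups Cubn averaged 115 ± 56.2 CPM at 7 weeks against 250 ± 51.2 CPM at 2 weeks (log2 fold change -1.13 ± 0.43, edgeR adjusted p = 0.0302). All control libraries of 7 weeks lay below all of 2 weeks. The call in control pups did not hold without 7-week control library 1 (edgeR adjusted p = 0.0726), 3 (0.0752) or 4 (0.0595), nor without 2-week control library 5 (0.0576). With the ileal marker covariate the sign turned, to 0.92 in periodontitis pups and 0.95 ± 1.21 in control pups (edgeR adjusted p = 0.598 in control pups). The ileal markers themselves differed between the ages, so that fit cannot tell segment from age.

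Amn averaged 193 ± 62.1 CPM at 7 weeks against 249 ± 42.5 CPM at 2 weeks in periodontitis pups (log2 fold change -0.37 ± 0.40, edgeR adjusted p = 0.42). Control pups had 146 ± 20.9 CPM at 7 weeks against 139 ± 72.7 CPM at 2 weeks (log2 fold change 0.07 ± 0.40, edgeR adjusted p = 0.89). Without control library 5 of 2 weeks the value in control pups was -0.22 (edgeR adjusted p = 0.361). The mean of this membrane partner of cubilin at 7 weeks was 77.4% of its 2-week mean in periodontitis pups and 105% in control pups. These shares depend on the TMM scaling. On the length-scaled CPM, which has none, they were 38.7% in periodontitis pups and 54.9% in control pups. Averaged over libraries on the log2 scale, that change of scale moves the difference of ages by -0.94 in periodontitis pups and by -0.67 in control pups. The shares compare means of CPM before the log, so they need not move by the same amounts.

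Clcn5 averaged 48 ± 10.5 CPM at 7 weeks against 80.7 ± 5.39 CPM at 2 weeks in periodontitis pups (log2 fold change -0.75 ± 0.17, edgeR adjusted p = 0.000803), and with the ileal covariate its adjusted p was 0.109. All 7-week periodontitis libraries lay below all 2-week ones. In control pups it averaged 50.9 ± 6.81 CPM at 7 weeks against 66.5 ± 16.3 CPM at 2 weeks (log2 fold change -0.39 ± 0.17, edgeR adjusted p = 0.0571). It passed there without control library 5 of 2 weeks, at -0.51 (edgeR adjusted p = 0.00387), without control library 4 of 2 weeks (0.0455) and without control library 5 of 7 weeks (0.0369).

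On the TMM scale, libraries of 7 weeks lay wholly below those of 2 weeks for Lrp2, Dab2, Folr1, Fcgrt and Clcn5 in periodontitis pups, 5 of 7 beside 28.3% of all genes. In control pups they did so for Lrp2, Cubn, Dab2 and Folr1, 4 of 7 beside 23.2% of all genes. Lrp2 is in both of these counts, and again met the filter only through the 2-week periodontitis libraries. Without control library 5 of 2 weeks and periodontitis library 5 of 7 weeks, 5 of the 7 fell in periodontitis pups, beside 42.7% of all genes, and 6 in control pups, all but Amn, beside 39.8%. With the ileal covariate the fitted falls of 4 genes were larger and passed in edgeR. In periodontitis pups the log2 values were then -9.91 for Folr1, -8.35 for Dab2, -6.85 for Lrp2 and -6.61 for Fcgrt, and in control pups -9.09 for Folr1, -7.55 for Dab2, -6.19 for Lrp2 and -5.26 for Fcgrt. The SE in control pups rose with the covariate, from 0.72 to 1.35 for Lrp2 and from 0.47 to 1.18 for Fcgrt. The ileal markers themselves differed between the ages, so this fit cannot tell segment from age. Markers of other cell types changed with age too. In both periodontitis and control pups 8 of 8 endothelial, 7 of 7 fibroblast, 4 of 5 smooth muscle and 7 of 7 pancreas genes fell. The summed level of the pancreas genes was 5.52 to 11.5 CPM at 7 weeks against 149 to 1567 CPM at 2 weeks in periodontitis pups, and 5.74 to 10.3 CPM against 173 to 647 CPM in control pups. Of 10 macrophage genes 8 fell in periodontitis pups and 4 in control pups, and their sum was 55.7 to 160 CPM at 7 weeks against 241 to 290 CPM at 2 weeks in periodontitis pups, and 80.9 to 190 CPM against 128 to 232 CPM in control pups. All 8 markers of the weaned enterocyte rose in both kinds of pup. The summed level of 8 pan-enterocyte markers was 11723 to 22351 CPM at 7 weeks against 5500 to 8792 CPM at 2 weeks in periodontitis pups, and 17062 to 20651 CPM against 7146 to 10119 CPM in control pups. Of these 8 epithelial markers 8 rose in periodontitis pups and 7 in control pups. The part of the mix of cells in the age values was not tested.

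**Figure D4:**
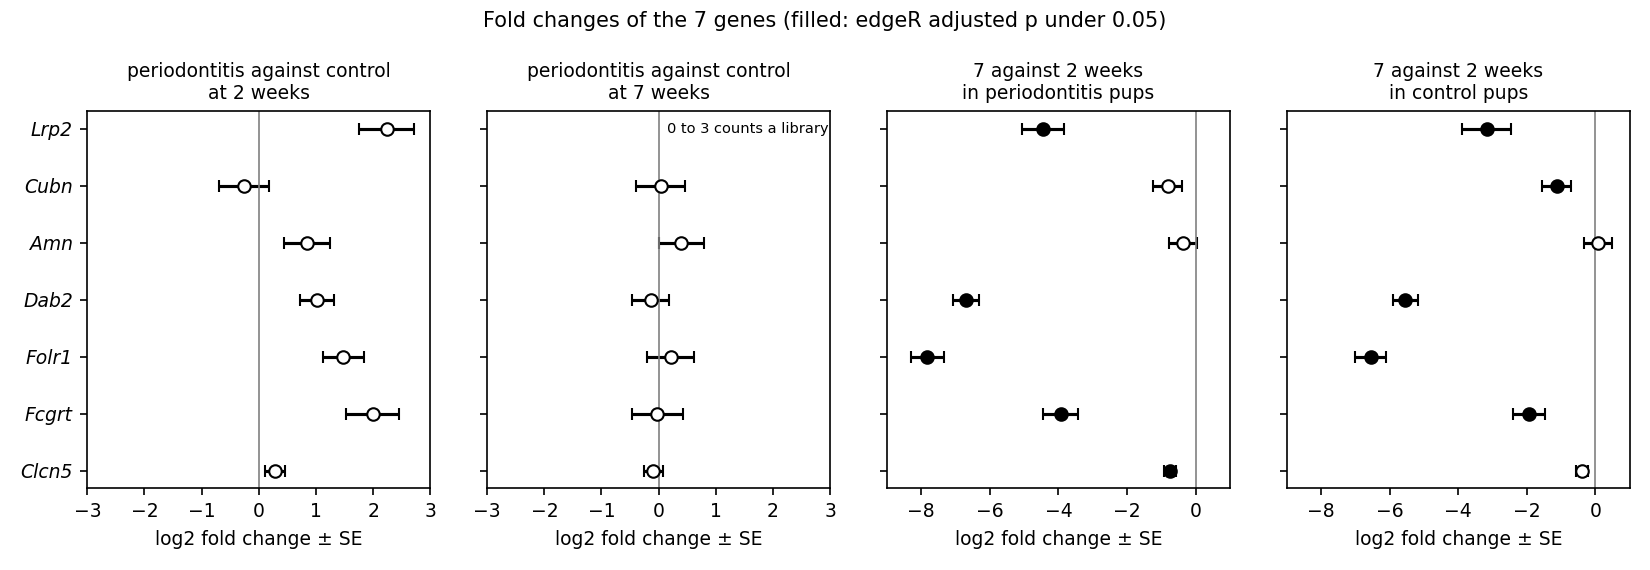
Log2 fold change ± SE of the 7 genes in 4 comparisons (edgeR, n = 5 libraries a group); filled points passed an adjusted p of 0.05 over all genes, and Lrp2 at 7 weeks is left without a value because no library exceeded 3 counts. No point is filled in the comparisons between dams, 5 are filled in each comparison of ages, and the 2 age panels have a wider axis.

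The difference of the dam effect between ages, 7 weeks minus 2 weeks, tested whether periodontitis and control pups differed by another amount at 7 weeks. It was -2.0 ± 0.65 for Fcgrt (edgeR adjusted p = 0.453), -1.27 ± 0.54 for Folr1 (0.553) and -1.15 ± 0.44 for Dab2 (0.513), all on the log2 scale. Lrp2 had -1.27 ± 1.21 (edgeR adjusted p = 0.768), which rests on the few counts of 7 weeks. In edgeR 0 of the 7 passed, beside 0.0229% of all genes, with unadjusted p-values under 0.05 for 3 of the 7 and for 1537 of all genes. DESeq2 passed 0 of the 7 and limma-voom passed 1, Fcgrt (adjusted p = 0.00581), beside 0.372% and 6.77% of all genes. A larger difference at 2 than at 7 weeks was therefore not shown by the edgeR test.

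Partners of these receptors were described from 6 lists. Between the kinds of dam 0 genes of any list passed in edgeR at 2 or at 7 weeks. With age, 30.4% of all genes rose and 35.7% fell in periodontitis pups, and 27.1% rose and 34.4% fell in control pups (edgeR). Among 20 endocytic adaptors and coat proteins, 13 rose (65%) and 3 fell (15%) in periodontitis pups, and 12 rose (60%) and 2 fell (10%) in control pups. The clathrin light chain Cltb averaged 162 ± 16.8 CPM at 7 weeks against 87 ± 2 CPM at 2 weeks in control pups (log2 fold change 0.89 ± 0.14, edgeR adjusted p = 2.07e-05). The clathrin heavy chain Cltc averaged 441 ± 68.4 CPM at 7 weeks against 219 ± 18.9 CPM at 2 weeks in periodontitis pups (1.01 ± 0.14, 3.51e-06). Picalm, an assembly protein of clathrin coats, had a log2 fold change of 1.28 ± 0.19 there (edgeR adjusted p = 1.22e-05), and Numb, an endocytic adaptor, 0.98 ± 0.15 (1.42e-05). Dab2 itself, which is not in that list, fell in both kinds of pup.

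Lrpap1, the chaperone of megalin and its relatives, fell in both kinds of pup. It averaged 12.3 ± 4.41 CPM at 7 weeks against 41.8 ± 7.05 CPM at 2 weeks in periodontitis pups (log2 fold change -1.76 ± 0.23, edgeR adjusted p = 2.61e-06), and 11.2 ± 2.51 against 28.9 ± 7.09 CPM in control pups (-1.36 ± 0.23, 5.51e-05). At 2 weeks it had 31.5 to 50.8 CPM in periodontitis pups, against 17.4 to 34.6 CPM in control pups (log2 fold change 0.53 ± 0.22, edgeR adjusted p = 0.281).

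Of 24 genes of endosome recycling and acidification, 8 rose (33.3%) and 5 fell (20.8%) with age in periodontitis pups, and 10 rose (41.7%) and 3 fell (12.5%) in control pups. Clcn3, a relative of Clcn5, averaged 167 ± 21.3 CPM at 7 weeks against 45.6 ± 8.52 CPM at 2 weeks in periodontitis pups (log2 fold change 1.87 ± 0.14, edgeR adjusted p = 3.42e-09) and 145 ± 14.8 against 66.5 ± 4.67 CPM in control pups (1.13 ± 0.13, 1.52e-06). Ocrl, a phosphatase of endosomes whose loss in humans impairs the same uptake in the kidney, fell in periodontitis pups (log2 fold change -1.56 ± 0.19, edgeR adjusted p = 1.15e-06) and in control pups (-1.65 ± 0.19, 1.13e-06). Rab4a, of rapid recycling, rose by 1.33 ± 0.15 on the log2 scale in periodontitis pups (edgeR adjusted p = 3.94e-07) and by 0.97 ± 0.15 in control pups (1.86e-05). The lysosomal exchanger Clcn7 averaged 20.2 ± 1.37 CPM at 7 weeks against 37.9 ± 5.37 CPM at 2 weeks in periodontitis pups (log2 fold change -0.91 ± 0.29, edgeR adjusted p = 0.00903). In control pups it had -0.15 ± 0.28 (edgeR adjusted p = 0.658), and its subunit Ostm1 had 0.10 ± 0.15 (0.607).

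Of 19 genes of vitamin B12 and folate handling, 5 rose (26.3%) and 8 fell (42.1%) with age in periodontitis pups, shares near those of all genes, and 5 rose (26.3%) and 10 fell (52.6%) in control pups. Slc46a1, the proton-coupled folate transporter of the intestine, averaged 687 ± 60.6 CPM at 7 weeks against 165 ± 76 CPM at 2 weeks in periodontitis pups (log2 fold change 2.05 ± 0.32, edgeR adjusted p = 1.91e-05). In control pups it averaged 842 ± 101 CPM at 7 weeks against 205 ± 82.8 CPM at 2 weeks (2.04 ± 0.32, 3e-05). Folr1 and Slc46a1, 2 routes for folate into cells, thus went in opposite directions. Folr2, the other folate receptor in the list, had 0 to 3 counts in each library at 7 weeks and 1 to 80 at 2 weeks, and fell in both kinds of pup.

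Tcn2, the plasma carrier of B12, had a log2 fold change of 0.28 ± 0.19 in periodontitis pups (edgeR adjusted p = 0.21) and rose in control pups, to 459 ± 44.6 CPM at 7 weeks against 284 ± 88.4 CPM at 2 weeks (0.69 ± 0.19, edgeR adjusted p = 0.00454). Cblif, the intrinsic factor whose complex with B12 cubilin binds, is made in the stomach. It had 0 or 1 counts in libraries of 7 weeks and 3 to 110 in those of 2 weeks, and it fell in periodontitis pups (edgeR adjusted p = 9.14e-05) and in control pups (0.000166).

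Beside Fcgrt stood 9 genes of antibody transport and other Fc receptors. B2m, its light chain, had 1140, 992, 1150, 931 and 1309 CPM in 2-week periodontitis libraries, against 1001, 793, 902, 894 and 8499 CPM in control libraries. Control library 5 was thus far above all other 2-week libraries in B2m while lowest in Fcgrt. Per length the ratio of Fcgrt to B2m was 0.517, 0.392, 1.17, 1.37 and 1.27 in 2-week periodontitis libraries, against 0.409, 0.423, 0.445, 0.167 and 0.00366 in control libraries. At 7 weeks it was 0.022 to 0.0371 in periodontitis libraries, against 0.0233 to 0.0292 in control libraries.

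B2m rose with age in periodontitis pups (log2 fold change 1.27 ± 0.51, edgeR adjusted p = 0.0334) and had 0.16 ± 0.50 in control pups (0.798), where control library 5 of 2 weeks sets the mean. Pigr, which carries IgA and IgM into the lumen, rose in both: it averaged 5466 ± 663 CPM at 7 weeks against 460 ± 310 CPM at 2 weeks in periodontitis pups (log2 fold change 3.57 ± 0.40, edgeR adjusted p = 5.14e-07). In control pups it averaged 5465 ± 798 against 978 ± 511 CPM (2.48 ± 0.39, 2.59e-05). The Fc receptors of myeloid cells Fcgr3 (log2 fold change -1.44 ± 0.34, edgeR adjusted p = 0.00108) and Fcgr1 (-1.11 ± 0.41, 0.0227) fell in periodontitis pups.

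Of 12 relatives of megalin in the lipoprotein receptor family that were tested, 3 rose (25%) and 6 fell (50%) with age in periodontitis pups, and as many in control pups. Lrp1, a broad scavenger receptor, averaged 306 ± 43.3 CPM at 7 weeks against 126 ± 48.3 CPM at 2 weeks in control pups (log2 fold change 1.27 ± 0.24, edgeR adjusted p = 0.000156). Vldlr fell to 1.16 ± 0.199 CPM at 7 weeks, against 9.59 ± 1.02 CPM at 2 weeks, in control pups (-3.04 ± 0.23, 7.52e-09).

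Among 16 regulators 7 rose (43.8%) and 3 fell (18.8%) with age in each kind of pup. Prdm1, a repressor that holds the suckling state of the mouse intestine, had its highest 2-week values in the periodontitis libraries with the most Fcgrt. Prdm1 had 39, 25.7, 44.5, 54.6 and 46.1 CPM in periodontitis libraries 1 to 5, against 12.3 to 29.6 CPM in control libraries, and did not pass the test (log2 fold change 1.08 ± 0.31, edgeR adjusted p = 0.114).

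With age Prdm1 fell in periodontitis pups (log2 fold change -0.98 ± 0.31, edgeR adjusted p = 0.00835) and had 0.47 ± 0.30 in control pups (0.184). It is also expressed by immune cells. Hnf4g, an enterocyte factor, averaged 186 ± 61.7 CPM at 7 weeks against 50.6 ± 22.1 CPM at 2 weeks in periodontitis pups (log2 fold change 1.88 ± 0.29, edgeR adjusted p = 1.94e-05).

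The genes most like Lrp2, Cubn and Fcgrt were sought by the root mean square difference of log2 CPM after each gene's own mean was taken off, among genes with a mean log2 CPM of at least 1, 11703 of them for Lrp2 and 11702 for the others. This is a description with no test, and the libraries share their ages. Over the 20 libraries the nearest to Fcgrt included Sapcd2 (0.39), Dpp7 (0.48), Hoga1 (0.50) and C2 (0.52), where the median over genes was 1.78. Over the 10 libraries of 2 weeks they included Sapcd2 (0.23), Kif12 (0.28), Pdzk1ip1 (0.32) and St3gal5 (0.39), with a median of 1.59. Dpp7 encodes a lysosomal peptidase.

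For Lrp2 the nearest over 20 libraries were Smim1 (0.59), Ctsl (0.61), Cmtm8 (0.62), Slc39a8 (0.62) and Galc (0.62), with a median of 1.79. Over the 2-week libraries they were Ttr (0.33), Ctsl (0.39), Lect2 (0.40), Lrrn1 (0.40) and Mfsd2a (0.43), with a median of 1.18. Ctsl and Galc also encode lysosomal enzymes, and Lrp2 values rest on few counts. For Cubn the nearest over 20 libraries were Mir17hg (0.55), Gsdme (0.56), Slitrk6 (0.56), Nts (0.56) and Sgk3 (0.57), with a median of 1.07. In the 2-week libraries, where Cubn varied little, they were Slc19a3 (0.10), Nqo2 (0.12), Hepacam2 (0.13), Cisd1 (0.13) and Txn1 (0.14), with a median of 0.47.

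Among the 7 genes themselves, the same measure over the 2-week libraries was 0.55 between Lrp2 and Dab2, with 20 genes nearer to Lrp2 than Dab2 was. It was 0.58 between Fcgrt and Folr1, with 22 genes nearer to Fcgrt, and 0.72 between Fcgrt and Amn, with 62 nearer. Between Cubn and Amn it was 1.43, with 11565 of 11702 genes nearer to Cubn than its own membrane partner was, but this value rests on control library 5. Between Cubn and Clcn5 it was 0.58, the smallest for Cubn among the other 6 genes, with 7418 genes nearer. Without control library 5, with its low Amn and Fcgrt, a choice made after seeing the data, it was 0.57 between Cubn and Amn, with 10773 genes nearer to Cubn. Over those 9 libraries it was 0.50 between Lrp2 and Dab2, 0.32 between Fcgrt and Folr1, 0.75 between Fcgrt and Amn and 0.40 between Cubn and Clcn5. Between Fcgrt and Lrp2 it was 0.33, with 19 genes nearer to Fcgrt, against 1.00, with 465 nearer, over all 10. The genes nearest to Fcgrt over the 9 libraries were St3gal5 (0.16), Tdrp (0.19), Ctsl (0.19), Lect2 (0.22) and Paqr9 (0.22), with a median of 1.09.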

How the data were processed

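PolyA RNA of small intestine was extracted with a total RNA kit of Omega Bio-tek and prepared with an Illumina kit, per the labels' protocols. The deposited values are expected counts per gene, made by the authors with cutadapt 4.8, FastQC 0.11.8, STAR 2.7.8a and RSEM 1.3.3, per the submitters' processing notes, which list the builds GRCh38 and GRCm38. The annotation release and strandedness are not given in the sources used here. RSEM shares reads that fit several genes between them, and the counts are not unique molecules. Of 55491 lines in the table, 4 stand for no mouse gene, at 0 counts, and 0 values changed on rounding. GENCODE M21 gave a length to 55227 IDs and none to 260.

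Samples were grouped by their titles, and 0 columns were left without a sample. In R 4.3.3 with edgeR 4.0.16, filterByExpr, given the 4 groups, kept 17464 genes (at least 99.916% of each library's counts). Libraries were scaled by TMM (factors 0.715 to 1.45), and glmQLFit with robust estimation modelled the 20 libraries with 4 group means, leaving 16 residual degrees of freedom at a common dispersion of 0.0989. Benjamini-Hochberg adjustment ran over all genes, with a threshold of 0.05. The standard error is the absolute log2 fold change over the square root of the F statistic. The code was tested on simulated counts.

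The 7 genes and all lists were chosen with earlier results of these data known, so nothing here is independent of them. The text names the 7 genes, 10 fixed partners, of each partner list up to 4 genes with the smallest adjusted p per comparison, and the 5 genes most like Lrp2, Cubn and Fcgrt. Fcgr1, Folr2, Clcn3 and Lrp1, where outside this rule, and all marker values by library were chosen after they were seen. Alternatives were DESeq2 1.42.0, its size factors, 2 other filters, no robust estimation, only the groups compared, the replicate number as a block, an ileal marker covariate and each library left out in turn. Added after seeing the data were limma-voom with sample quality weights (limma 3.58.1), leaving out 2 libraries together and, for the likeness of genes, control library 5 of 2 weeks. Some genes that the rule takes in are not reported here. Protein sequences were not used here.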

Additional observations from a re-analysis of the deposited data

Results flagged for a closer look

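In 28 groups of 5 libraries, 1 for each gene and group, a library was looked for whose gap to its nearest neighbour was large beside the range of its group. Chance gives such a gap in about 1 of 20 groups, and 2 were found. Lrp2 had 0.147 CPM in control library 2 of 7 weeks, with a gap of 0.73 of the range, which rests on 3 counts where the other 4 libraries had 0 or 1. Clcn5 had 71.2 CPM in periodontitis library 2 of 2 weeks, with a gap of 0.79 of the range, below the 81.5 to 84.1 CPM of the other 4 libraries.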

How the results depend on the processing

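Of 756 values of the 7 genes under alternatives, over 35 results, 699 kept their direction and their side of the threshold, 26 came to pass it, 6 no longer passed and 25 turned in sign. The number of the 7 genes passing at 2 weeks between dams was 0 in the reported fit, 4 in DESeq2, 5 in limma-voom and 4 without control library 5 of 2 weeks and periodontitis library 5 of 7 weeks together, the last 2 chosen after seeing the data. Leaving out 1 library at a time it was 0 to 3. It was 0 to 0 at 7 weeks, 5 to 6 for age in periodontitis pups, 4 to 6 for age in control pups and 0 to 0 for the difference of the dam effect, where limma-voom gave 1.

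Of all genes, 5 passed at 2 weeks, with 599 in DESeq2, 0 with its size factors, 17 without robust estimation, 0 with only the groups compared, 0 with the ileal covariate, 361 without the 2 libraries and 5200 in limma-voom (0 to 387 leaving out 1 library). At 7 weeks 2 passed, with 25 in DESeq2, 0 with only the groups compared, 32 without the 2 libraries and 8 in limma-voom (0 to 15). For age 11542 passed in periodontitis pups (10794 to 12207; 6748 with the ileal covariate) and 10739 in control pups (10013 to 12408; 4721 with it). For the difference of the dam effect 4 passed, with 65 in DESeq2, 2 with the ileal covariate, 159 without the 2 libraries and 1182 in limma-voom (1 to 26). The cause of these shifts was not tested.

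Signs turned mostly where values were near 0. With the ileal covariate Cubn had 0.18 at 2 weeks, 0.92 for age in periodontitis pups, 0.95 for age in control pups and -0.03 for the difference of the dam effect, and Amn had -0.74 for age in control pups. Limma-voom gave -0.05 for Cubn and 0.01 for Clcn5 at 7 weeks and -0.19 for Amn with age in control pups. Without the 2 libraries the 7-week values were 0.02 for Fcgrt and 0.01 for Clcn5, and Amn had -0.24 for age in control pups and 0.03 for the difference. Leaving out 1 library, the 7-week log2 fold changes ran from -0.61 to 0.26 for Cubn, -0.45 to 0.02 for Dab2, -0.08 to 0.04 for Fcgrt and -0.21 to 0.01 for Clcn5. The age value of Amn in control pups ran from -0.22 to 0.22, and the difference from -1.62 to 0.20 for Lrp2 and -0.35 to 0.53 for Cubn.

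Pairing by replicate number was not evident: deviations of same-numbered libraries correlated at -0.4 to 0.29 over 30 pairs, 4 of them above 0.1. Libraries with different numbers were not compared in this way, so these values cannot show that the samples were unpaired. With the replicate number as a block, 0 of the 7 genes passed at 2 weeks, 0 at 7 weeks, 5 for age in periodontitis pups, 4 in control pups and 0 for the difference. In that fit Cubn had -0.08 at 7 weeks and an edgeR adjusted p of 0.0525 for age in control pups, and 0 of all genes passed at 2 weeks, at 7 weeks and for the difference. Fitting only the groups compared was not run for the difference, which needs all groups. Lrp2 fell to the filter at 7 weeks and for age in control pups with only the groups compared. It has no value in any comparison with the filter of CPM above 1 in 5 libraries. Depth limits Lrp2 at 7 weeks, where 3 counts are 0.0868 to 0.187 CPM on the TMM scale.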
